A study of Mus musculus with 21 samples.

Results

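The Rpl35a family as described here holds 6 genes of the 55487 listed in the count table. They are the coding gene Rpl35a and 5 processed pseudogenes that are nearly identical to it, Rpl35a-ps2, Rpl35a-ps3, Rpl35a-ps4, Rpl35a-ps6 and Gm10243. The genes were chosen by their likeness to Rpl35a, and because some of them differed between maternal separation (MS) and standard rearing (SR) in these same libraries. Their levels in MS against SR are therefore given as a description, without a test. Hippocampal poly-A RNA was sequenced from male wild type C57BL/6 mice at 10 weeks of age, 1 library per mouse, with 9 MS and 12 SR mice. MS mice had been taken from the dam for 4 hours daily from postnatal day 10 to 17, in alternation in the light and the dark phase, and per the methods their home cages also lost most of the nesting material in that time. SR mice were raised without either change. Whole nests were assigned to a condition, so separation and reduced nesting cannot be told apart and mice of a nest are not independent of each other.

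Rpl35a encodes a protein of the large subunit of the cytosolic ribosome, which every cell needs to make protein, and inherited loss of a copy of the human gene is a known cause of Diamond-Blackfan anaemia. Processed pseudogenes are copies of an mRNA that was reverse transcribed and inserted elsewhere in the genome, so they lack the introns of their parent gene. Ribosomal protein genes, short and strongly expressed in the germ line, are the source of a large share of the processed pseudogenes of mammals. A sequencing read from such a gene family can align equally well to several places.

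The sequences decide which reads can be told apart, and are shown first. The coding sequence of Rpl35a and the sequence shared by all 5 pseudogenes have 333 bases each, the stop codon included, of which bases 1 to 300 are printed. A pseudogene not counted among the 5, Rpl35a-ps5, is shown as the closest of the others. Capitals mark the bases that differ between Rpl35a and the pseudogenes, and positions are counted from 1 at the A of ATG. All are from GENCODE M21 on GRCm38 and are written 5′ to 3′.
Rpl35a coding sequence: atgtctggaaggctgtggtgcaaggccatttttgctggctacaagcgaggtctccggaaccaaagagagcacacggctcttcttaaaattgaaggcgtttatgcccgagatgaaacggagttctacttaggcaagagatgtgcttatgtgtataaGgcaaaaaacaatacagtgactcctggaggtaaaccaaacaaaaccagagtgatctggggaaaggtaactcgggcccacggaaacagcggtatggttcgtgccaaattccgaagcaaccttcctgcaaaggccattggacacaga
Rpl35a-ps2, Rpl35a-ps3, Rpl35a-ps4, Rpl35a-ps6 and Gm10243: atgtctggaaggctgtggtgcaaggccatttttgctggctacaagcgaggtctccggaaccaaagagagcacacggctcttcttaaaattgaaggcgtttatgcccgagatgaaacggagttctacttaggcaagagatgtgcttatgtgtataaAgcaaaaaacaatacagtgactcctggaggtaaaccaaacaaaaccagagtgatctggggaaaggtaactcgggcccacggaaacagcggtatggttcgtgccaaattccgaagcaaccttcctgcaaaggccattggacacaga
Rpl35a-ps5: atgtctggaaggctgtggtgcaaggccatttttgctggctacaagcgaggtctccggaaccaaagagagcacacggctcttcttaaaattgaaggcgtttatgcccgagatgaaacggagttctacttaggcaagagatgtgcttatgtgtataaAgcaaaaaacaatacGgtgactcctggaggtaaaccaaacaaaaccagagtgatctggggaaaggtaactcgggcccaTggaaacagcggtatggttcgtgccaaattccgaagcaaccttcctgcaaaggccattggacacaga

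The 5 pseudogenes held 1 distinct sequence among them and differed from Rpl35a by a single base, G156A. The base is the last of codon 52 and turns AAG into AAA, which keep the same amino acid. The pseudogene sequence held 0 premature stop codons over its 110 codons and was 99.7% identical to Rpl35a. Position 156 lies 8 bases before the next border between coding exons of Rpl35a, at chr16:33057534 on GRCm38. Reads were 150 bases long, and of the 184 windows of that length in the coding sequence 150 held the differing base. The other 34 windows were identical in the spliced Rpl35a transcript and in the pseudogenes. Each window of the pseudogene sequence was held exactly by 5 to 8 annotated genes, so no read inside it belongs to a single pseudogene by its sequence.

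The 6 genes lie on 6 chromosomes. Rpl35a (ENSMUSG00000060636) spans chr16:33056453-33060189 on the plus strand and has introns. Rpl35a-ps2 (ENSMUSG00000081214) lies at chr1:181241988-181242320 on the minus strand, in no other annotated gene. Rpl35a-ps4 (ENSMUSG00000083424), at chr2:108874926-108875258 on the minus strand, likewise overlaps no other gene. Rpl35a-ps3 (ENSMUSG00000067575) lies at chr17:29136972-29137304 on the minus strand, within an intron of Rab44 on the opposite strand, and Rab44 had 0 to 5 counts per library. Rpl35a-ps6 (ENSMUSG00000094664) lies at chr5:123255481-123255813 on the minus strand, within an intron of Wdr66 on the opposite strand, and Wdr66 had 93 to 291 counts. Gm10243 (ENSMUSG00000095526) lies at chr6:48523518-48523850 on the plus strand, inside Zfp862-ps on the same strand, which had 391 to 814 counts. Rpl35a itself overlaps Gm17106 on the opposite strand, a gene with 0 to 3 counts. None of these overlaps was between exons. The library kit keeps the strand, but whether counting used it is not given in the sources used here.

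A search of all GENCODE M21 transcripts found 22 genes that matched the Rpl35a coding sequence at 90% identity or more over 80% of its length or more. These were the 6 family members and 16 further processed pseudogenes. All 16 carried A at the position that matches base 156, so Rpl35a was the only 1 of the 22 genes with G there. The counts fell into separate levels. Rpl35a had 580 to 1328 counts in the 21 libraries, and the 5 identical pseudogenes had between 14 and 118 each. The 16 further pseudogenes reached at most 9 counts in any library, and 6 of them had no count in any. Rpl35a-ps5, which lies just outside the family at 99.1% identity, carries A171G and C234T beside G156A and had 0 to 4 counts. Rpl35a-ps7, at 96.7% identity, had 0 to 6 counts. Those with the most counts among the 16 were Gm16200 at 96.4% identity, with 1 to 8 counts, and Gm10029 at 97.9%, with 0 to 9.

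**Figure D1:**
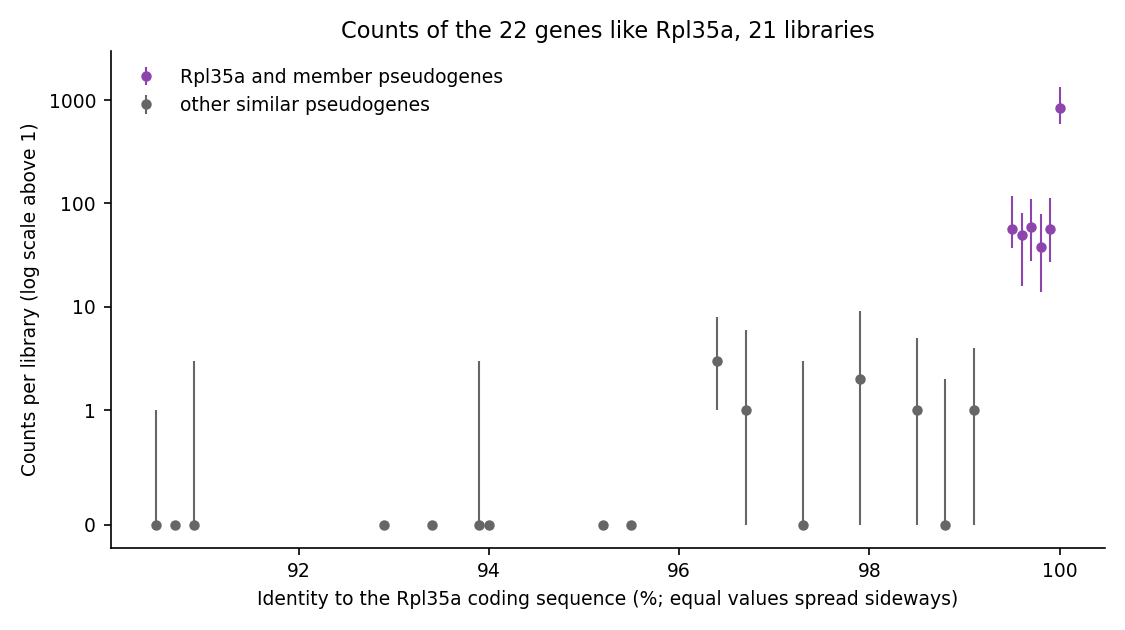
Counts per library against identity to the Rpl35a coding sequence in percent, for the 22 genes like Rpl35a; points are medians and bars the range over 21 libraries, on a log scale above 1. Rpl35a stands highest, the 5 pseudogenes at 99.7% identity lie between 14 and 118 counts, and no other gene exceeds 9.

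Levels are given as CPM, a gene's counts relative to its library total after TMM scaling. Total counts lay between 17276810 and 30449055 per library. The study removed an outlier that its text does not name. The MS library A2 was left out here for its place apart on the first principal component, known from an earlier analysis of these data, and may not be the library that the study removed. A2 lay at 34.7 on this component, where the others ran from -20.9 to 25.3. Its summed level of 4 dentate granule cell markers was 116 CPM against 236 to 479 in the other mice, and 5 striatal neuron markers summed to 1216 CPM against 36.6 to 386. In A2, Rpl35a had 1328 counts and the 5 pseudogenes together 403. The values below are of 8 MS and 12 SR mice. Markers of dentate and pyramidal neurons were present in all of these mice, but also in A2, so presence does not show hippocampal tissue alone. Calb1, 1 of the dentate markers, was at 92.65 CPM in A2, within the 64.12 to 98.85 CPM of SR mice. Summed striatal markers reached 386 CPM in the highest kept MS mouse and 249 in the highest SR mouse. The group medians were 46.2 and 44.3 CPM.

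Rpl35a had by far the most counts of the 6 genes in each mouse. Scaled by transcript length, a rough adjustment, it had 73.6 ± 7.06 CPM per kilobase in SR mice (SD, n = 12). In MS mice it had 88.9 ± 13.4 (SD, n = 8). Reads that fit several of the 6 genes are not resolved by this scaling, so these values describe counts as assigned. The pseudogenes followed in the order Gm10243, Rpl35a-ps3, Rpl35a-ps6, Rpl35a-ps2 and Rpl35a-ps4. In SR mice Gm10243 had 7.06 ± 1.72 CPM per kilobase and Rpl35a-ps4 had 4.56 ± 1.27 (SD, n = 12). Neighbours in this order lay within 1 SD of each other in both groups. The order was nevertheless alike from mouse to mouse. Rpl35a-ps4 had the lowest count of the 5 in 20 of 20 mice, and Gm10243 had the highest in 15 of 20, ties included.

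The counts of the 5 identical pseudogenes were close to each other within a mouse. Spread of a pair of genes was measured as chi-square per degree of freedom over the 20 mice, which is near 1 when 2 genes with a fixed ratio are counted from different reads and can fall below 1 when reads are shared. It is given as a description, without a test. It was below 1 for all 10 pairs of pseudogenes, with a median of 0.554 and a range of 0.0906 to 0.897. The tightest pair was Rpl35a-ps3 and Rpl35a-ps6, whose counts differed by 1 to 10 in any mouse, with a median difference of 3 counts. Rpl35a-ps2 and Rpl35a-ps4 formed another tight pair, at 0.186. Nearest to 1 were Rpl35a-ps2 with Rpl35a-ps6, at 0.897, and with Gm10243, at 0.893. Pairs of Rpl35a with a pseudogene were at 2.86 to 4.08, above 1 for all 5.

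Other identical genes in the same table were looked at in the same way. Of 12 pairs of genes with identical transcripts and a mean of at least 20 counts, 10 had a spread below 1, with a median of 0.146. Among them were Rpl27-ps3 and Gm11518, at 0.0585. How the counting treated reads that align to several places is not given in the sources used here. A sum over the 5 pseudogenes may therefore hold a read more than once. The number of distinct reads counted at the 5 genes lies between the largest of their counts and their sum. Some of these reads may come from Rpl35a, in which 34 of 184 windows of read length are identical. The 5 genes may then not be independent measurements.

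**Figure D2:**
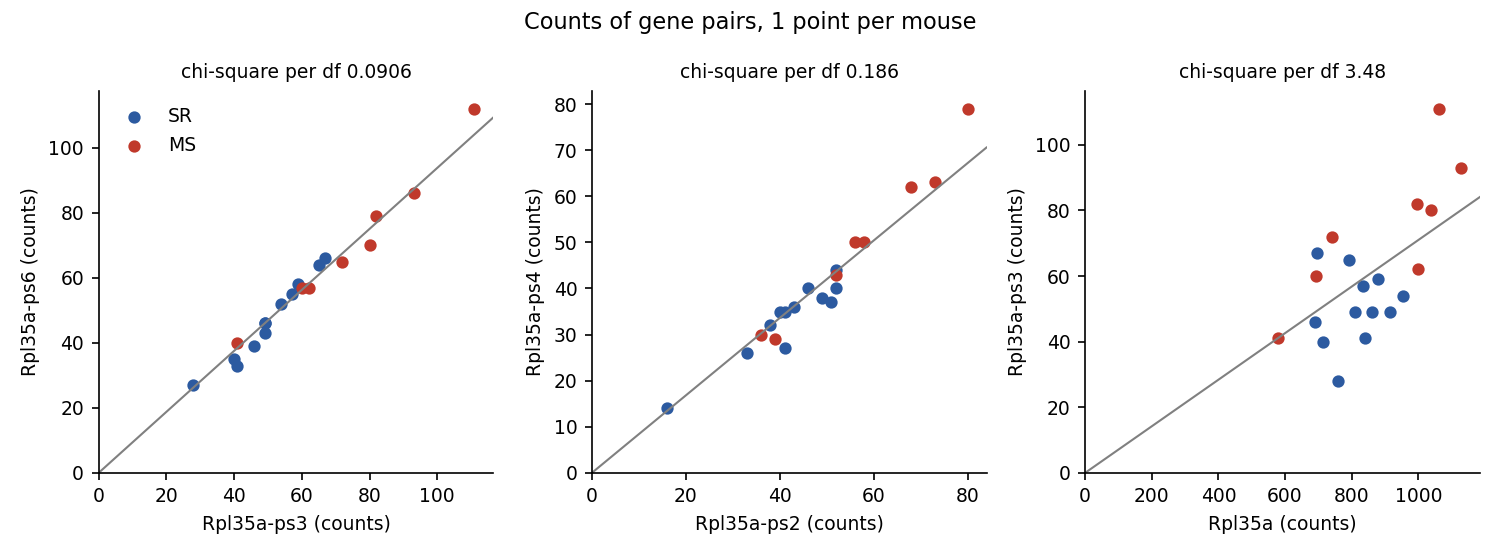
Counts of 3 pairs of genes, 1 point per mouse (red, 8 MS; blue, 12 SR), with a grey line at the ratio of the summed counts. The pairs of pseudogenes drawn hug the line, with chi-square per degree of freedom of 0.0906 and 0.186. They are the tightest of 10 pairs of pseudogenes, whose median was 0.554. Rpl35a and Rpl35a-ps3 scatter around the line at 3.48.

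All 6 genes had higher mean levels in MS than in SR mice, and the fold changes of the pseudogenes were larger than that of the coding gene. Rpl35a ran from 31.4 to 43.6 CPM in SR mice, with a median of 35.7, and from 31.8 to 51.8 CPM in MS mice, with a median of 44.9. The groups overlapped, and 5 of 8 MS mice lay above the highest SR mouse. The means were 43.6 ± 6.60 CPM in MS (SD, n = 8) and 36.2 ± 3.47 in SR (SD, n = 12), a log2 fold change of 0.27 with a standard error of 0.0740.

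Gm10243, the pseudogene with the most counts, ran from 1.53 to 3.58 CPM in SR mice, with a median of 2.21, and from 2.30 to 5.76 in MS mice, with a median of 3.67. All 8 MS mice were above the SR median, 4 of them above the highest SR mouse, and 7 of 12 SR mice were below the lowest MS mouse. Its log2 fold change was 0.68 with a standard error of 0.155, from means of 3.75 ± 1.04 and 2.35 ± 0.571 CPM. Rpl35a-ps3 had 3.64 ± 0.952 CPM in MS against 2.27 ± 0.644 in SR, and its log2 fold change was 0.69 with a standard error of 0.167. Its sequence is the same as that of Gm10243, and its groups overlapped in the same way, with 4 of 8 MS mice above the highest SR mouse. Rpl35a-ps6 had a fold change of 0.70 on the log2 scale, with a standard error of 0.183, at 3.44 ± 0.993 against 2.13 ± 0.694 CPM. Rpl35a-ps4, the lowest of the 5, had 2.47 ± 0.801 against 1.52 ± 0.424 CPM, which is 0.71 on the log2 scale with a standard error of 0.197. Rpl35a-ps2 had the smallest difference of the 5, 0.58 on the log2 scale with a standard error of 0.182, at 2.82 ± 0.715 against 1.89 ± 0.517 CPM. Since the 5 genes may share reads, their like fold changes may not be 5 separate observations.

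With edgeR's quasi-likelihood test and Benjamini-Hochberg adjustment over 18146 genes, 0 of the 6 genes were called at an adjusted p of 0.05, where 2 genes in all were called (0.011%) and 2095 had an unadjusted p below 0.05. DESeq2 called 3 of the 6 genes, all higher in MS, where it called 0.495% of 15569 genes higher and 0.771% in either direction. The choice of the genes used this contrast, so nothing is read from these counts.

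**Figure D3:**
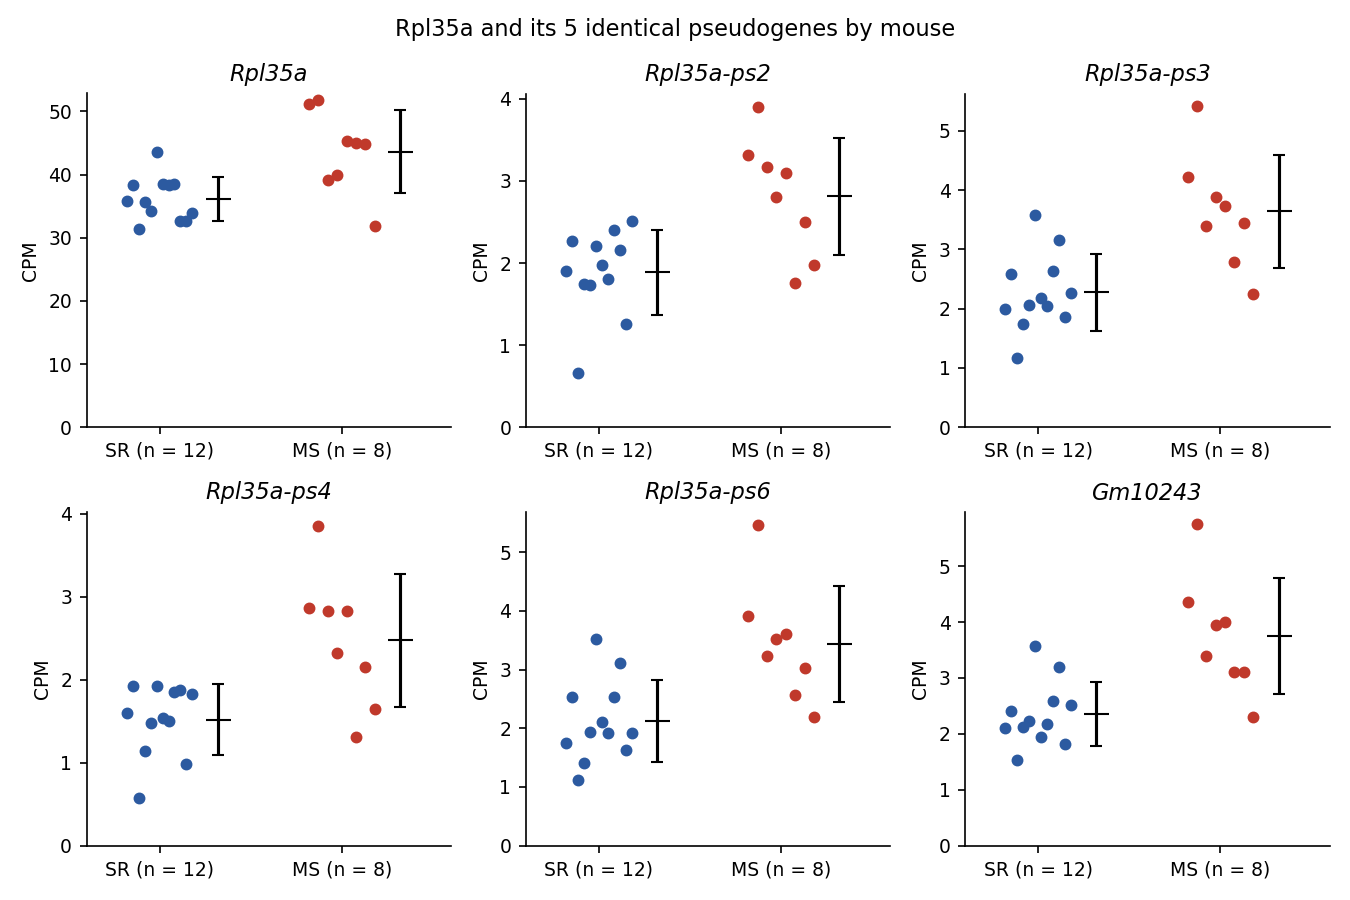
CPM of Rpl35a and the 5 pseudogenes, 1 point per mouse, with mean and SD at the side (blue, 12 SR mice; red, 8 MS mice); each panel has its own linear axis from 0. In every panel the MS mean lies above the SR mean and the groups overlap.

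Summed over the 5 pseudogenes, the level ran from 5.05 to 14.8 CPM in SR mice, with a median of 9.59, and from 10.4 to 24.4 CPM in MS mice, with a median of 16.2. All 8 MS mice were above the SR median and 5 were above the highest SR mouse, so the groups overlapped in part. The means were 16.1 ± 4.39 and 10.2 ± 2.66 CPM, which gives 0.67 on the log2 scale with a standard error of 0.168. With Rpl35a added, the whole family had 59.7 ± 10.3 CPM in MS and 46.3 ± 5.52 in SR, with a log2 difference of 0.37 and a standard error of 0.0874. Since a read may enter this sum more than once, Gm10243 alone is given beside it where both can be.

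Relative to the coding gene, the pseudogenes were higher in most MS mice. For each 100 counts of Rpl35a the 5 pseudogenes summed to 36.7 ± 6.68 counts in MS mice (SD, n = 8) and 27.9 ± 6.48 in SR mice (SD, n = 12). The MS mice ran from 25.6 to 47.1 and the SR mice from 16.1 to 41.3. Only 1 MS mouse, A3, exceeded the highest SR mouse, G1, although 7 of 8 were above the SR median. Gm10243 alone gave 8.51 ± 1.49 in MS and 6.49 ± 1.40 in SR per 100 Rpl35a counts. With the reads of all mice of a condition added up, the pseudogenes had 2653 counts beside 7237 of Rpl35a in MS, or 36.7 per 100, and 2699 beside 9743 in SR, or 27.7 per 100.

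The ratio was also taken within ranges of the animal numbers, a split chosen after the data were seen. The labels name no nest or date, but the numbers in the sample titles form 7 sets of 3 in a row, each of 1 condition, named A to C for MS and D to G for SR. Sets C and G carry the upper numbers and the other 5 sets the lower ones. In the lower range the 5 MS mice had 36.4 to 47.1 pseudogene counts per 100 of Rpl35a and the 9 SR mice 16.1 to 34.0, without overlap. This holds only with A2 left out, since that MS mouse of the lower range had 30.35, within the span of the SR mice. In the upper range the 3 MS mice had 25.6 to 32.6 and the 3 SR mice 23.1 to 41.3, and the MS mean was the lower, at 30.0 ± 3.82 against 32.3 ± 9.08. Mouse G1 had the highest ratio of the SR mice and D3, of the lower range, the lowest. The difference between the ranges in this ratio was not tested.

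**Figure D4:**
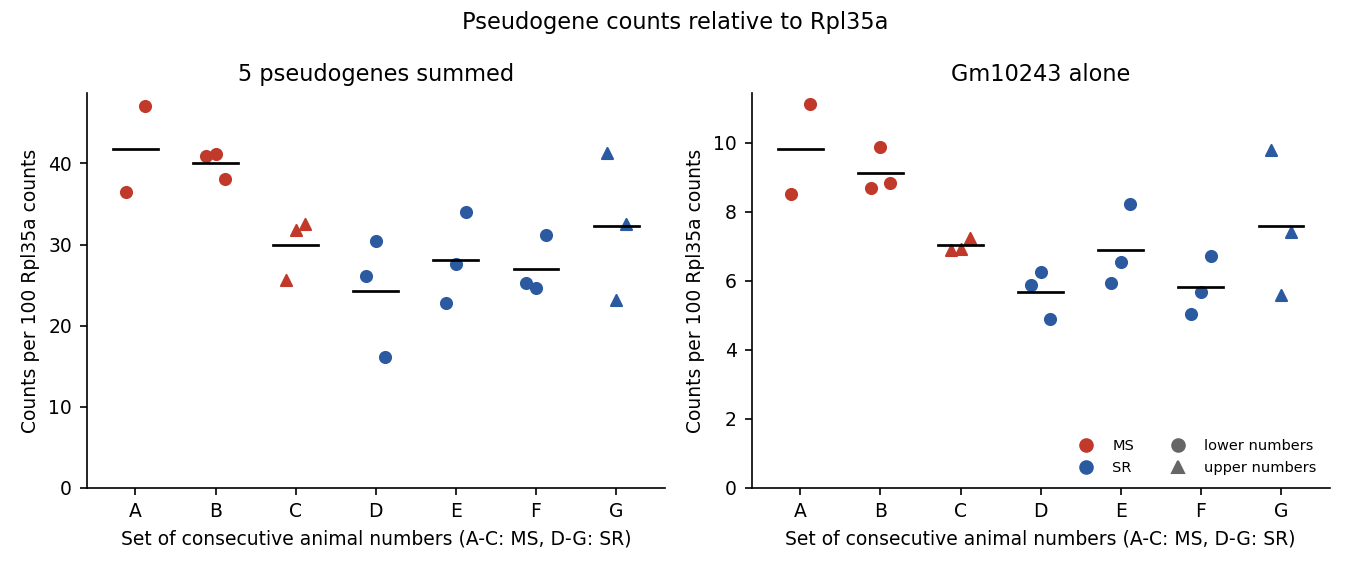
Pseudogene counts per 100 counts of Rpl35a for each mouse by set of animal numbers, for the sum of 5 pseudogenes and for Gm10243 alone; red is MS, blue is SR, triangles are the upper range of numbers and lines are set means. For the sum, sets A (without A2) and B lie at 36.4 and above, set C between 25.6 and 32.6, and set G spans 23.1 to 41.3.

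The levels themselves followed the same sets. Summed pseudogenes had 21.5 CPM on average in the 2 mice left in set A, 16.6 in set B and 12.0 in set C, against 8.70 to 10.8 in the 4 SR sets. In the lower range alone, with A2 left out, the log2 fold change of the sum was 0.90, and all 5 MS mice lay above all 9 SR mice. In the upper range alone it was 0.18, with 10.4 to 14.2 CPM in MS and 7.56 to 13.5 in SR. Of the 6 genes taken singly, Rpl35a-ps2 and Rpl35a-ps4 had all MS mice above all SR mice in the lower range, and 0 of 6 did in the upper range, where the shares over all genes were 0.628% and 5.62%. The genes were chosen on this contrast, so nothing is read from these counts either. Rpl35a itself had log2 fold changes of 0.29 and 0.30 in the lower and the upper range. The difference between the ranges was fitted for each gene as an interaction term in edgeR, chosen after the data were seen, and called 0 of 18146 genes. The adjusted p of the 6 genes in that test was 0.53 to 1.00.

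Markers of choroid plexus epithelium, a tissue that lies next to the hippocampus, differed between the ranges in MS mice and varied widely within sets in SR mice. Their 5 genes, led by Ttr, the transthyretin gene, summed to 3089 to 4132 CPM in the 5 MS mice of the lower range and to 51.6 to 1334 CPM in the 3 of the upper range. SR mice ran from 27.9 to 4436 CPM, with a median of 808 in the lower range and 1497 in the upper, and set D alone held values from 76.8 to 4436. Over both ranges the median was 823 in SR and 3232 in MS. In MS mice the summed pseudogenes had 16.0 to 24.4 CPM in the lower range and 10.4 to 14.2 in the upper. Among SR mice, the one with the most choroid plexus marker RNA, D3, had the lowest summed pseudogene level, at 5.05 CPM. Of the 3 upper-range MS mice, C2 had the least choroid plexus marker RNA and the highest summed pseudogene level, at 14.2 CPM. Summed red blood cell markers had a median of 323 CPM in MS and 248 in SR, and meningeal fibroblast markers 62.1 and 61.0. The part of these tissues in the levels of the family was not tested. In bulk tissue, more cells of a type and more RNA per cell cannot be told apart.

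Whether mice of the same condition differed by set is a question that the choice of the genes did not use. edgeR's quasi-likelihood F-test of the differences among sets within MS and within SR called 6 of 18146 genes (0.0331%), with 1650 at an unadjusted p below 0.05. It called 0 of the 6 Rpl35a genes. Rpl35a was nearest, with an adjusted p of 0.55 and an unadjusted p of 0.0486, and set means of 51.5 CPM in A, 41.5 in B and 40.5 in C. Gm10243 had an adjusted p of 0.56, and the other 4 pseudogenes 0.67 to 0.71.

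Across SR mice alone, the levels of the pseudogenes were set against that of Rpl35a. This relation does not use the MS against SR contrast, but the genes were chosen for their likeness to Rpl35a. Pearson's r of log2 CPM was between 0.52 for Gm10243 and 0.61 for Rpl35a-ps6 over 12 mice, with permutation p-values adjusted over the 5 relations of 0.0644 to 0.0855 (two-sided). Spearman's rho was 0.38 to 0.58, with adjusted permutation p-values of 0.123 to 0.219. None passed 0.05 over the 12 mice. Single mice moved these values. Without G1, r was 0.67 to 0.87 and all 5 adjusted permutation p-values were below 0.05, at 0.0033 to 0.0252. The permutations treated mice as independent, which mice of a nest are not, so such p-values may be too small. Without D3 and E3, the lowest and the highest in Rpl35a, r was -0.17 to 0.36, over a narrower range of Rpl35a levels. Between pseudogenes r was 0.74 to 0.98 in the same mice, which share library totals and may share reads. Rpl35a and the pseudogenes may share reads too, as 34 of 184 windows of read length are identical in them. The part of shared reads in r was not tested.

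The rest of the ribosomal proteins gives a scale for these differences. Of 78 other cytosolic ribosomal protein genes edgeR called 0 and DESeq2 called 7. All 78 had log2 fold changes above 0, also with DESeq2's size factors, while 72 of 78 did without set C, 73 without MS mouse C1 and 74 with the transcript length trend of each library as a term. The median was 0.15 beside a median of 0.00 over all genes. Rpl35a, at 0.27, was exceeded by 9 of them. The highest were Rpl24 at 0.48 (standard error 0.193, with a mean of only 14.9 counts), Rps29 at 0.42 and Rps21 at 0.42, and the lowest were Rpl29 at 0.04, Rpl3 at 0.03 and Rpl17 at 0.01. None reached 0.58, the smallest value of the 5 Rpl35a pseudogenes. Those 5 were chosen with this contrast known, have low counts and may share reads, so nothing is read from their higher values.

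Pseudogenes of other ribosomal protein genes centred on a smaller value than the Rpl35a pseudogenes, which were chosen with this contrast known. They were listed by symbols of the form Rpl-ps or Rps-ps alone, which leaves out pseudogenes with Gm symbols. Of 296 listed in this way, 51 passed the filter on low counts. Their median log2 fold change was 0.15, with 43 of 51 above 0 and 0 called by edgeR. The median was 0.07, with 31 of 51 above 0, without MS mouse C1, and 0.04, with 32 of 51 above 0, with the transcript length trend as a term. Rpl17-ps10 at 0.89 and Rps12-ps3 at 0.79 were above the smallest Rpl35a pseudogene, with means of 12.1 and 16.3 counts, and were named after their values were seen. The 3 with the highest mean counts lay near 0: Rps6-ps4 at 0.03, Rpl3-ps1 at -0.02 and Rpl15-ps3 at 0.02.

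**Figure D5:**
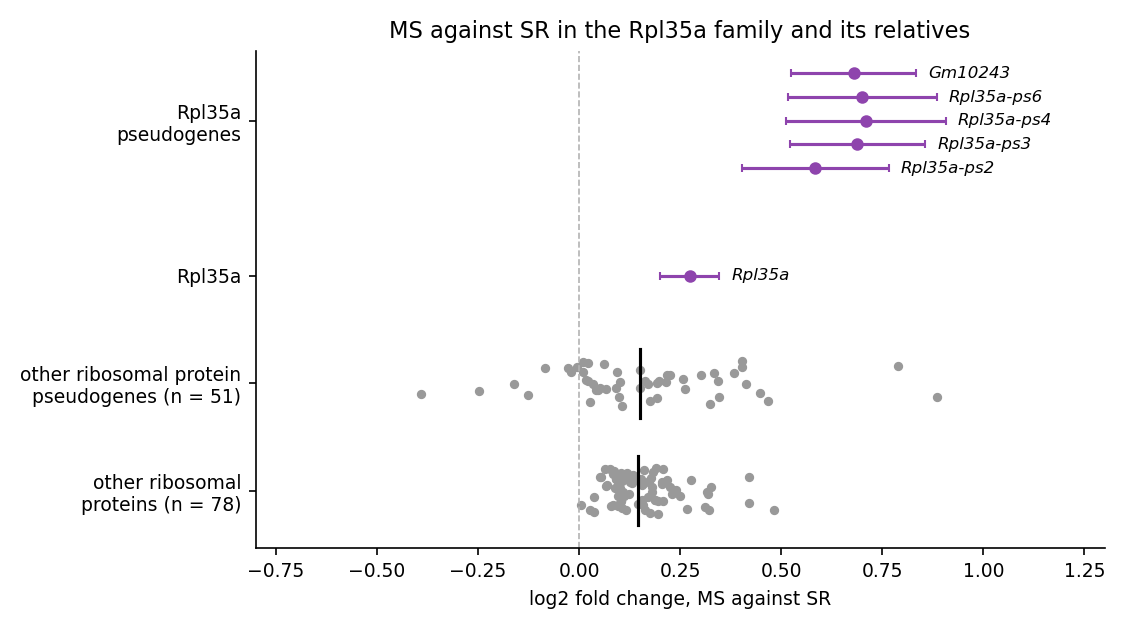
Log2 fold change in MS against SR for the 5 Rpl35a pseudogenes and Rpl35a (bars, standard error) and for 51 other ribosomal protein pseudogenes and 78 other ribosomal protein genes (grey points, 1 per gene; black line, median). The Rpl35a pseudogenes lie at 0.58 to 0.71, and both grey groups centre on 0.15.

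Genes whose levels ran most like Rpl35a over the 20 mice, with the condition means subtracted, were 5 coding genes. They were Rpl30 with Pearson's r of 0.93 and Rpl37 with 0.91, both ribosomal proteins of the large subunit, and Usmg5, Cox6c and Romo1 with 0.91, 0.90 and 0.88, which encode mitochondrial proteins. The median r with the other ribosomal proteins was 0.58, and over all genes it was -0.01. The summed pseudogenes had an r of 0.65 with Rpl35a. The genes most like the summed pseudogenes were others: Ndufa3 with 0.74 and Ndufa6 with 0.72, of respiratory complex I, Gm7452 with 0.74 and AC151284.1 with 0.73, both processed pseudogenes, and Dynll2 with 0.72, a dynein light chain. The median r of the summed pseudogenes with the other ribosomal proteins was 0.27. In each case the 5 genes were picked for the highest r in a search of the 18146 genes tested, without the family. Some values this high may come from the size of the search alone, which was not tested. These values are descriptions over mice that share condition, library totals and possibly, among Rpl35a and the pseudogenes, reads.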

How the data were processed

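Poly-A RNA of the hippocampus was sequenced in 9 MS and 12 SR mice, grouped by the treatment in the labels. The authors aligned paired-end reads of 150 bases to GRCm38 with STAR 2.7.3a and assigned them to Ensembl genes with featureCounts. Raw counts of 55487 genes were deposited by the authors in 1 table, not normalized and not filtered. Strandedness of the counting and its treatment of reads that align to several places are not given in the sources used here. Columns that belong to no sample numbered 0. Of the genes listed, 55227 had an entry in GENCODE M21.

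The genes and lists were chosen with earlier results of these data known. The named genes were the 6 family members, genes that overlap them or match the coding sequence, the 3 other ribosomal proteins with the largest and the smallest log2 fold change, the 3 other ribosomal protein pseudogenes with the highest mean count, and the 5 genes most correlated with Rpl35a and with the summed pseudogenes.

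Counts were filtered with filterByExpr (minimum count 10), scaled by TMM and fitted by the robust quasi-likelihood test of edgeR 4.0.16 (R 4.3.3), adjusted over 18146 genes at a threshold of 0.05. The biological coefficient of variation was 13.3%, and counting error is largest for the pseudogenes. A standard error is the size of a log2 fold change over the square root of its F statistic. Log2 CPM used a prior count of 2. Permutation tests used 100000 resamples. Transcripts were searched with blastn 2.17.0. Alternatives were DESeq2 1.42.0, limma 3.58.1, other scaling, filters and sets of libraries. The fits and the pair spread were tested on simulated data. Rpl35a lengths per kilobase are those of its 491-base transcript.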

Additional observations from a re-analysis of the deposited data

How the results depend on the processing

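The log2 fold changes of the 6 genes kept their direction in all 228 values under other settings. Most of these settings left out 1 mouse or 1 set, so they share most of their libraries. The SD used here is the spread of log2 CPM among mice within conditions, 0.178 for Rpl35a and 0.347 to 0.472 for the pseudogenes. By this wide measure 223 values moved by less than 1 SD. The exceptions were the 5 pseudogenes in the upper range of animal numbers alone, where the sum was at 0.18 and Rpl35a-ps2 at 0.087. There the ratio of pseudogenes to Rpl35a, higher in MS by 8.77 counts per 100 in all mice, reversed to -2.33. It was 14.3 in the lower range, a split chosen after seeing the data, 7.29 to 10.4 with a mouse left out and 6.76 to 12.8 with a set left out. The sum had a log2 fold change of 0.56 to 0.74 with a mouse left out, and 0.50 without set A and 0.88 without set C.

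The count of genes called in MS against SR, 2 in all mice, depended on the libraries. It was 1 with all 21 libraries, 1 with no filter, 0 with counts summed within sets, 120 with DESeq2, 230 in the lower range and 0 in the upper. With a mouse left out it ran from 0 to 109, 109 without MS mouse C2 and 109 without C3. It was 340 without set C, 1 without set G, and 0 without sets A, B, D or F. Other ribosomal proteins called numbered 7 with DESeq2, 11 in the lower range, 25 without set C and 0 to 18 with a mouse left out (2 without C2, 18 without C3). Their pseudogenes numbered 2 without set C and 0 to 1 with a mouse left out.

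Differences among sets called 1 of the 6 genes with no filter on low counts, where 1992 of 39023 genes were called, and 163 genes in all with DESeq2.

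In 20 mice with condition means subtracted, the correlations with Rpl35a passed 0.05: r was 0.52 for Rpl35a-ps2, 0.67 for Rpl35a-ps3, 0.54 for Rpl35a-ps4, 0.65 for Rpl35a-ps6 and 0.67 for Gm10243. With an SR mouse left out, r ran from 0.39 to 0.67, 0.41 to 0.85, 0.43 to 0.73, 0.41 to 0.87 and 0.21 to 0.79 in the same order, and all 5 passed without G1. The permutations behind these p-values treated mice as independent, which mice of a nest are not, so the p-values may be too small. Rpl35a and a pseudogene may share reads, and the causes were not tested.

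No paired analysis was made, since whole nests were assigned to a condition and the labels pair no MS mouse with an SR mouse. At 14 to 118 counts a pseudogene's level in 1 mouse is limited by counting error.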
